A study of Mus musculus with 12 samples.

Results

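Cxcl9, Cxcl10, Cxcl11, their receptor gene Cxcr3 and Ccl5 were followed across 12 libraries of flank tumours grown from 4T1 cells, a mammary carcinoma line of BALB/c origin. The members were taken by gene symbol from the deposited gene table, where 4 of the 5 listed genes had a row among 18433 genes. Those 4 are Cxcl9 (NCBI gene identifier 17329), Cxcl10 (15945), Cxcr3 (12766) and Ccl5 (20304), and all 4 passed the filter on low counts together with 14144 genes in all. Cxcl11 was not analysed here. The RefSeq annotation of GRCm38.p6, a C57BL/6J genome, classes Cxcl11 (56066) as a transcribed pseudogene with an NR transcript, and the deposited transcript table used here lists 24133 NM, 32417 XM and 3902 XR transcripts and 0 NR transcripts.

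BALB/c mice had received 4T1 cells under the skin of the right flank and were randomised to arms of 5 mice. The control arm has no treatment in the labels, the DSF arm was given DSF by mouth, the anti-PD-1 arm was given a blocking antibody against PD-1 into the peritoneum, and the combination arm was given both. The labels do not spell out DSF, which commonly stands for disulfiram, a drug that blocks aldehyde dehydrogenase. Each arm is represented by 3 RNA sequencing libraries of tumour tissue, and no doses, treatment times, ages or sexes are given. The labels do not say that every library is a different mouse, so the spread between libraries may be partly technical, and p-values measure only that spread.

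CXCL9, CXCL10 and CXCL11 are chemokines without the ELR motif that bind the receptor CXCR3, and all are induced by interferon gamma, with CXCL10 also responding to type I interferon and NF-kB. Macrophages, dendritic cells, endothelium and carcinoma cells can secrete them. CXCR3 is carried by effector CD8 T cells, type 1 helper T cells, a subset of regulatory T cells and NK cells, which follow the ligands into tissue. CCL5 is made by activated T cells and NK cells as well as by myeloid and tumour cells, and it acts on CC chemokine receptors such as CCR1 rather than on CXCR3. In a whole tumour, fewer cells of a type and less RNA per cell cannot be told apart.

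Total expected counts per library ranged from 13323171 to 16809705. Each member has 1 transcript in the deposited transcript table, and its transcript counts equal its gene counts in all 12 libraries (largest difference 0). Carcinoma markers summed to 922 to 1374 CPM over the 12 libraries, so epithelial keratin RNA was present in each. The sum came mostly from Krt8 and Krt18 (means of 580 and 542 CPM over all libraries), and Epcam had a mean of 9.72 CPM. The other markers did not follow the sum. Epcam and Cdh1 had their highest means in the combination (23.5 and 72.0 CPM), Krt7 and Krt19 in DSF (28.1 and 12.1 CPM). DSF replicate 2 stood apart by adipocyte markers, whose sum was 6818 CPM there and 42.3 to 408 CPM in the other 11 libraries. Skin and hair markers summed to 258 to 5221 CPM in the combination, 9.83 to 59.4 CPM in DSF, 64.0 to 163 CPM in control and 50.02 to 300 CPM in anti-PD-1 libraries. The 5221 CPM was combination replicate 2 alone. Combination replicates 1 and 3 were at 258 and 545 CPM, the former within the anti-PD-1 range. Of the 10 skin markers, the hair keratin genes Krt25 and Krt27 were at 0 in all control libraries and Krt71 in all DSF libraries, and none of the 7 adipocyte markers was at 0 in a whole arm.

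Promoter windows of 300 bases (250 before and 50 from the gene start) are given from RefSeq for Cxcl9, Cxcl10 and Cxcr3. Ccl5 and Cxcl11 had no entry. They are shown because the values of both ligands varied together while those of the receptor did not follow them. Windows lie on the minus strand of GRCm38.p6 at chr5:92328030-92328329 for Cxcl9, chr5:92348840-92349139 for Cxcl10 and chrX:101734098-101734397 for Cxcr3, and read 5′ to 3′ along the gene. Capitals mark matches, on either strand, to GAAANNGAAA (the core of the interferon-stimulated response element), TTCNNNGAA (the core of the gamma-activated site), GGGNNTTCC or GGGNNNTTCC (short and long NF-kB cores).
Cxcl9: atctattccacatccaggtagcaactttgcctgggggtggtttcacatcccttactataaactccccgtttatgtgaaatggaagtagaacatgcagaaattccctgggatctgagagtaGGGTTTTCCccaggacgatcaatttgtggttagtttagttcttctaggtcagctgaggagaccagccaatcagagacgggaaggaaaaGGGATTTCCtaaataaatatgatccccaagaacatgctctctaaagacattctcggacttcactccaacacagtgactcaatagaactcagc
Cxcl10: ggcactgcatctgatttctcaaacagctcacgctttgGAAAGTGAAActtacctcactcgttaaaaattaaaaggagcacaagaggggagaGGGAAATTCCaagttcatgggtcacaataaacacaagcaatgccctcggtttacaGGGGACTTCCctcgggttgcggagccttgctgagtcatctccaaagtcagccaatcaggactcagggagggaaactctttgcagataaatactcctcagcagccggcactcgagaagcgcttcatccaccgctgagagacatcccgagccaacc
Cxcr3: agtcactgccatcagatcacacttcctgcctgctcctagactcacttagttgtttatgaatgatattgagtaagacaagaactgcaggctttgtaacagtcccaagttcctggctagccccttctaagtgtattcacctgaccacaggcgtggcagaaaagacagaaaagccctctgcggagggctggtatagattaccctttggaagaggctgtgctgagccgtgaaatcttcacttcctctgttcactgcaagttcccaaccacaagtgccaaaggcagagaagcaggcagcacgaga

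With the first base of the gene counted as 0, the Cxcl10 window held GAAAGTGAAA from -213 to -204, GGGAAATTCC from -159 to -150 and GGGGACTTCC from -104 to -95, the last overlapping a short NF-kB core. The Cxcl9 window held GGGTTTTCC from -130 to -122 and GGGATTTCC from -42 to -34, and the Cxcr3 window held no match. Over 32851 promoter windows of the same length, GAAANNGAAA was present in 3.44%, TTCNNNGAA in 8.3%, GGGNNTTCC in 5.82% and GGGNNNTTCC in 5.56%. A match describes letters and not a bound site, and a motif not found in this window may lie outside it.

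Per transcript length, Cxcl9 had the highest level of the members in control tumours, with 105 ± 18.2 FPKM (SD, n = 3, as for all group means that follow), ahead of Ccl5 with 59.2 ± 25.8, Cxcl10 with 48.5 ± 5.90 and Cxcr3 with 2.21 ± 0.236 FPKM. FPKM is the authors' fragment level scaled to transcript length and library size. Cxcl9 exceeded Ccl5 in all 3 control, all 3 anti-PD-1 and all 3 combination libraries, and in 1 of 3 DSF libraries. Cxcl9 exceeded Cxcl10 in every one of the 12 libraries. Across arms, levels are given as CPM, counts scaled to TMM-adjusted library size.

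Cxcl9, a ligand induced mainly by interferon gamma, was at 288, 337 and 229 CPM in control replicates 1 to 3. In DSF tumours its levels were 168, 49.4 and 131 CPM. In anti-PD-1 tumours they were 353, 190 and 209 CPM. The combination libraries were at 312, 329 and 430 CPM. All DSF libraries lay below all libraries of the other arms, while control, anti-PD-1 and combination libraries overlapped. Over all genes, DSF was lower without overlap for 6.41% against control and 5.23% against anti-PD-1. The combination was higher than DSF without overlap for 12.3%, and the share lowest in DSF against every other arm was not counted. The lowest level, in DSF replicate 2, came from 791 counts and the highest, in combination replicate 3, from 7216. In order of means the arms were DSF (116 ± 60.6 CPM), anti-PD-1 (251 ± 89.2), control (285 ± 54.4) and combination (357 ± 63.8), and only the step from DSF to anti-PD-1 separated the libraries of neighbours.

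Cxcl10, the ligand that also responds to type I interferon, had the same low arm. Control replicates were at 50.3, 43.5 and 37.6 CPM. DSF replicates were at 30.9, 11.4 and 19.6 CPM. Again every DSF library lay below every other library, a pattern whose share over all genes was not counted. Anti-PD-1 replicates were at 66.5, 40.5 and 51.2 CPM, and combination replicates at 47.4, 47.7 and 59.4 CPM. These arms overlapped with each other and with control. The means were 20.6 ± 9.75 CPM in DSF, 43.8 ± 6.33 in control, 51.5 ± 6.84 in the combination and 52.7 ± 13.1 in anti-PD-1.

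Cxcl10 overlaps Art3, a gene on the opposite strand. Of its 2252 exon bases, pooled over all exons listed for it in GENCODE M21, 133 are shared with Art3 exons. Whether these bases lie in the 1 Cxcl10 transcript that was counted was not checked. Whether counting used strand is not given in the sources used here, so any reads counted in that stretch cannot be told apart. Art3 had 764 counts in DSF replicate 2, where Cxcl10 was lowest with 183, and 24 to 78 counts in the other 11 libraries, where Cxcl10 had 267 to 1122. Cxcl9 shares 0 exon bases with Art3.

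Cxcr3, the receptor of both ligands on lymphocytes, had a different pattern. Control replicates were at 2.86, 3.10 and 3.35 CPM, DSF replicates at 3.42, 4.50 and 1.61, and anti-PD-1 replicates at 4.39, 3.02 and 2.11 CPM. The combination libraries were at 5.90, 6.71 and 5.54 CPM and lay above all 9 other libraries. Control, anti-PD-1 and DSF means were 3.10 ± 0.246, 3.17 ± 1.15 and 3.18 ± 1.46 CPM and their libraries overlapped, against 6.05 ± 0.599 CPM in the combination. These levels rest on 22 to 101 counts per library, so counting error is larger than for the ligands. DSF replicate 2, with the lowest Cxcl9 and Cxcl10 of the series, had the highest Cxcr3 of its arm.

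Ccl5, a lymphocyte and myeloid chemokine, was separated in only 1 pair of arms. Control replicates were at 10.1, 23.7 and 25.7 CPM and DSF replicates at 23.8, 12.9 and 13.8 CPM. Anti-PD-1 replicates were at 21.3, 14.3 and 11.5 CPM and combination replicates at 25.2, 22.2 and 21.3 CPM. The combination libraries lay just above the anti-PD-1 libraries and overlapped with control and DSF. Means ran from 15.7 ± 5.04 in anti-PD-1 over 16.8 ± 6.07 in DSF and 19.8 ± 8.47 in control to 22.9 ± 2.02 CPM in the combination, and no neighbours in that order were separated. Control replicate 1 held the lowest Ccl5 level of all 12 libraries.

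**Figure D1:**
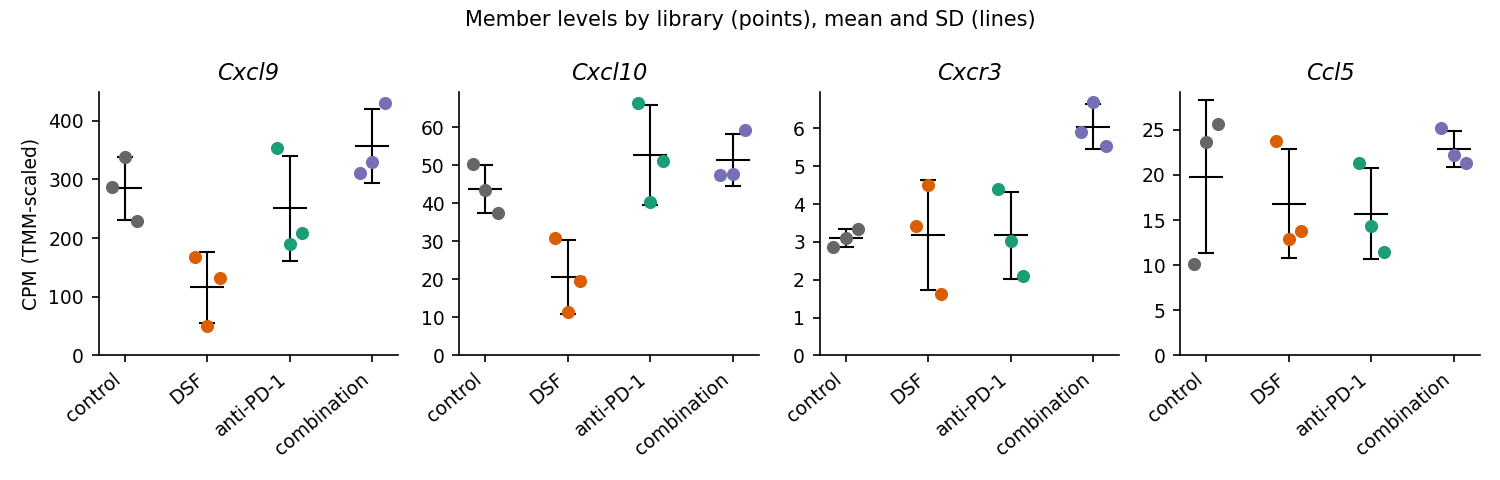
Levels of Cxcl9, Cxcl10, Cxcr3 and Ccl5 (y axis, TMM-scaled CPM from 0) in the 4 arms (x axis), with a point per library and lines for the mean and SD of 3 libraries. DSF libraries are lowest for both ligands, at 49.4 to 168 CPM for Cxcl9 and 11.4 to 30.9 for Cxcl10, and combination libraries are highest for Cxcr3, at 5.54 to 6.71 CPM. The shares of all genes with either pattern were not counted.

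Whether any member differed among the 4 arms was asked first with the edgeR quasi-likelihood test, with p-values adjusted over all 14144 genes and a threshold of 0.05. It called 0 of the 4 members, and 0% of all genes (1863 genes had an unadjusted p under 0.05). The adjusted p was 0.15 for Cxcl10, 0.208 for Cxcl9, 0.383 for Cxcr3 and 0.748 for Ccl5. The likelihood ratio test of DESeq2 called 2 of the 4 members and 870 genes.

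The effect of the drug by itself is addressed by DSF against control. Both interferon-induced ligands had lower levels in DSF tumours, with no overlap of libraries, and neither the receptor nor Ccl5 was separated. Cxcl9 had a log2 fold change of -1.29 ± 0.38 (SE; fold 0.408, adjusted p = 0.295) and Cxcl10 of -1.09 ± 0.30 (fold 0.471, adjusted p = 0.272). Cxcr3 had 0.04 ± 0.37 (95% interval -0.78 to 0.86) and Ccl5 -0.24 ± 0.35 (-1.01 to 0.54). The edgeR test called 0 of 4 members and 0% of genes, and 1501 genes had an unadjusted p under 0.05. DESeq2 called Cxcl9 (adjusted p = 0.0235) and Cxcl10 (adjusted p = 0.0296) among 221 genes. Libraries did not overlap, with DSF lower, for 2 of 4 members and for 6.41% of all genes. Without DSF replicate 2 the log2 fold changes were -0.92 for Cxcl9 and -0.78 for Cxcl10, and without DSF replicate 1 they were -1.66 and -1.502. Adjusted for scores of skin and adipocyte markers they were -0.92 and -0.67. Skin marker sums did not overlap between these arms (9.83 to 59.4 CPM in DSF, 64.0 to 163 in control). The adjusted fit therefore cannot tell skin from treatment, and the part of these tissues in the difference was not tested.

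Blockade of PD-1 by itself, set against control, separated no member beyond the spread of libraries. Log2 fold changes were -0.18 ± 0.37 for Cxcl9 (95% interval -1.005 to 0.64), 0.27 ± 0.29 for Cxcl10 (-0.38 to 0.91), 0.03 ± 0.37 for Cxcr3 (-0.79 to 0.85) and -0.34 ± 0.35 for Ccl5 (-1.11 to 0.44). All adjusted p-values were 0.999, with 0 of 4 members and 0% of genes called and 245 genes under 0.05 before adjustment. By DESeq2, 0 members and 0 genes passed. Libraries of all 4 members overlapped.

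The combination against control asks what both agents did together. Here the receptor, and not the ligands, had the larger difference: Cxcr3 was 1.95-fold higher (log2 fold change 0.96 ± 0.37 SE, adjusted p = 0.371), with no overlap of libraries. The same separation, higher in the combination, held for 11.5% of all genes. Cxcl9 had a log2 fold change of 0.33 ± 0.37 (95% interval -0.50 to 1.15) and Cxcl10 of 0.23 ± 0.29 (-0.41 to 0.88). Ccl5 was at 0.21 ± 0.35 (-0.56 to 0.98), and at -0.10 without control replicate 1. The edgeR test called 0 of 4 members and 0% of genes, with 1589 genes under 0.05 before adjustment, and DESeq2 found 0 members among 250 genes. Adjusted for the skin and adipocyte scores, the Cxcr3 value was 0.44, Cxcl9 was at -0.13, Cxcl10 at -0.20 and Ccl5 at -0.21.

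The combination against DSF asks what the antibody added to the drug, and both ligands had higher levels in the combination, with no overlap of libraries. Cxcl9 was 3.07-fold higher in the combination (log2 fold change 1.62 ± 0.38 SE, adjusted p = 0.0562) and Cxcl10 was 2.50-fold higher (1.32 ± 0.30, adjusted p = 0.0508), both just missing the threshold. Cxcr3 was 1.90-fold higher (0.92 ± 0.37, adjusted p = 0.207) and Ccl5 1.36-fold higher (0.44 ± 0.35, adjusted p = 0.541). The edgeR test called 0 of 4 members and 1.86% of genes (263). Cxcl10 held rank 303 and Cxcl9 rank 358 by p. Libraries did not overlap, with the combination higher, for 3 of 4 members and 12.3% of all genes.

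Calls in this pair of arms depended on the tool and on single libraries. DESeq2 called Cxcl9 (adjusted p = 0.000369) and Cxcl10 (adjusted p = 0.000876) among 1170 genes, and limma on log2(FPKM + 1) called the same ligands at 0.037 and 0.034 among 431 genes. Without DSF replicate 2 edgeR called both at smaller log2 fold changes, 1.25 for Cxcl9 (adjusted p = 0.045) and 1.02 for Cxcl10 (0.0472), among 601 genes. Both were also called without anti-PD-1 replicate 1, and Cxcl10 alone without DSF replicate 1 (log2 fold change 1.74, where 28 genes were called) or without anti-PD-1 replicate 2. The number of genes called was 467 and 454 without anti-PD-1 replicates 1 and 2, 334 without combination replicate 1, 105 and 2 without control replicates 3 and 1, and 0 without control replicate 2, DSF replicate 3, anti-PD-1 replicate 3, or combination replicate 2 or 3. Adjusted for the skin and adipocyte scores, the log2 fold changes were 0.79 for Cxcl9, 0.47 for Cxcl10, 0.30 for Cxcr3 and -0.29 for Ccl5, with 0 genes called. Skin markers were themselves higher in the combination than in DSF, without overlap (sums of 258 to 5221 against 9.83 to 59.4 CPM). The adjusted fit therefore cannot tell skin from treatment, and the part of skin and fat in the ligand difference was not tested.

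The combination against anti-PD-1 asks what DSF added to the antibody. Neither ligand was separated: Cxcl9 had a log2 fold change of 0.51 ± 0.37 (95% interval -0.32 to 1.33) and Cxcl10 of -0.03 ± 0.29 (-0.68 to 0.61). Cxcr3 was 1.90-fold higher (0.93 ± 0.37, adjusted p = 0.446) and Ccl5 1.46-fold higher (0.54 ± 0.35, adjusted p = 0.603), each without overlap of libraries. Higher values without overlap were found for 2 of 4 members and for 10.7% of all genes. The edgeR test called 0 of 4 members and 0% of genes, with 1452 genes under 0.05 before adjustment, and DESeq2 found 0 members among 70 genes. Adjusted for the skin and adipocyte scores, the values were 0.0915 for Cxcl9, -0.44 for Cxcl10, 0.50 for Cxcr3 and 0.16 for Ccl5. Since the combination is shared, the Cxcr3 values against control, DSF and anti-PD-1 are not independent of one another.

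DSF against anti-PD-1 compares the single agents. Cxcl10 was at 0.391 of its anti-PD-1 level in DSF tumours (log2 fold change -1.36 ± 0.30 SE, adjusted p = 0.217) and Cxcl9 at 0.463 (-1.11 ± 0.38, adjusted p = 0.527), both without overlap, as for 5.23% of all genes lower in DSF. Cxcl10 held rank 57 of 14144 genes by p. Cxcr3 was at 0.00 ± 0.37 (95% interval -0.81 to 0.82) and Ccl5 at 0.10 ± 0.35 (-0.68 to 0.88). The edgeR test called 0 of 4 members and 0.0707% of genes (10, all lower in DSF). Cxcl10 was called by DESeq2 (adjusted p = 0.00297) among 146 genes, and by edgeR without DSF replicate 1 (log2 fold change -1.77, adjusted p = 0.0419) among 27 genes, while 0 genes were called without DSF replicate 3. Adjusted for the skin and adipocyte scores, Cxcl9 was at -0.70 and Cxcl10 at -0.90.

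**Figure D2:**
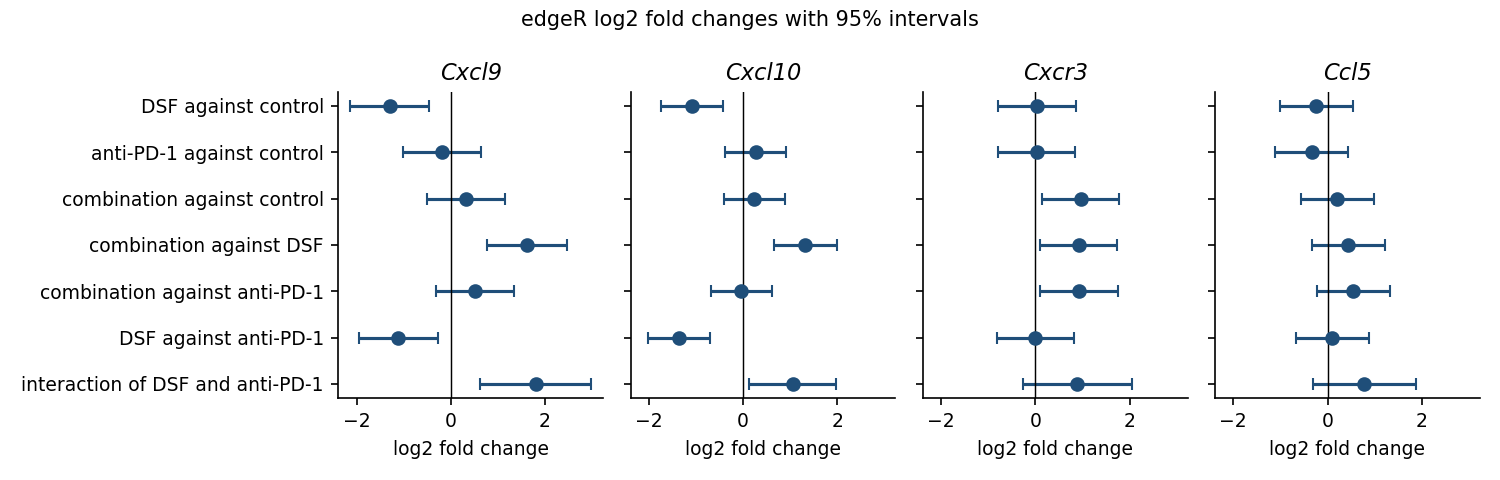
Log2 fold changes (x axis) of Cxcl9, Cxcl10, Cxcr3 and Ccl5 in 6 comparisons of arms and the interaction (y axis), with points from the edgeR fit and bars for 95% intervals of single genes, not adjusted for the number of genes. Cxcl9 and Cxcl10 lie below 0 where DSF is set against control or anti-PD-1 and above 0 for the combination against DSF (1.62 and 1.32), while Cxcr3 lies above 0 in the 3 comparisons with the combination.

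The interaction asks whether the log2 change with DSF differed between tumours given the antibody and tumours not given it. All 4 members had positive estimates: 1.80 ± 0.53 (SE) for Cxcl9 (adjusted p = 0.272), 1.05 ± 0.42 for Cxcl10 (0.343), 0.89 ± 0.53 for Cxcr3 (0.527) and 0.78 ± 0.50 for Ccl5 (0.56). For Cxcl9 this sets a change of -1.29 with DSF alone beside one of 0.51 with DSF on top of the antibody. The edgeR test called 0 of 4 members and 0% of genes, with 1754 genes under 0.05 before adjustment, while DESeq2 found Cxcl9 (adjusted p = 0.0281) among 235 genes. Adjusted for the skin and adipocyte scores, the interaction was 1.01 for Cxcl9, 0.23 for Cxcl10, 0.36 for Cxcr3 and 0.0811 for Ccl5. Averaged over the other agent, the main effect of DSF was -0.39 ± 0.27 for Cxcl9 and -0.56 ± 0.21 for Cxcl10, 0.48 ± 0.26 for Cxcr3 and 0.15 ± 0.25 for Ccl5. The main effect of anti-PD-1 was 0.72 ± 0.27 for Cxcl9, 0.79 ± 0.21 for Cxcl10, 0.48 ± 0.26 for Cxcr3 and 0.05 ± 0.25 for Ccl5. By edgeR each main effect called 0 of 4 members and 0% of genes, with 1153 genes for DSF and 1422 for anti-PD-1 under 0.05 before adjustment. DESeq2 called Cxcl10 for anti-PD-1 (adjusted p = 0.0178) among 321 genes, and 0 members among 80 genes for DSF. Adjusted for the same scores, the main effect of anti-PD-1 was 0.29 for Cxcl9, 0.35 for Cxcl10, 0.12 for Cxcr3 and -0.33 for Ccl5, and that of DSF was 0.32 for Cxcr3.

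The mean balance of both ligands was lower with the antibody alone than in control and higher with the antibody on top of DSF than with DSF alone. The ratio of Cxcl9 to Cxcl10 in FPKM was 1.91, 2.59 and 2.04 in control, 1.80, 1.44 and 2.22 in DSF, 1.78, 1.59 and 1.35 in anti-PD-1, and 2.19, 2.31 and 2.41 in combination replicates 1 to 3. All anti-PD-1 libraries were below all control and combination libraries and overlapped with DSF. The mean log2 ratio was 0.64 ± 0.20 in anti-PD-1 against 1.11 ± 0.23 in control, and 1.201 ± 0.07 in the combination against 0.84 ± 0.31 in DSF. Averaged over both strata, the log2 ratio differed by 0.14 with DSF (exact permutation test, two-sided, p = 0.445) and by -0.06 with anti-PD-1 (exact permutation p = 0.77), an average of values of opposite sign. The difference within each stratum was not tested. Across 6 such tests on 3 ratios the smallest adjusted p was 0.27, and 400 arrangements allow a smallest p of 0.005.

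Cxcr3 was also set against the T cell genes Cd3d, Cd3e and Cd3g, which encode chains of the T cell receptor complex. Their summed level was 17.4, 21.4 and 17.1 CPM in control, 13.2, 13.1 and 10.8 in DSF, 24.9, 13.7 and 14.6 in anti-PD-1, and 21.4, 25.4 and 25.7 CPM in combination replicates 1 to 3. DSF libraries were the lowest, and combination libraries overlapped with anti-PD-1 but lay above control, by the narrow margin of 21.43 over 21.42 CPM. Cxcr3 divided by this sum in CPM, which is not a per-length comparison, was 0.145 to 0.197 in control, 0.15 to 0.345 in DSF, 0.144 to 0.221 in anti-PD-1 and 0.216 to 0.275 in the combination. Combination ratios lay above all control ratios, and the lowest of them below the highest of the DSF and anti-PD-1 ratios. The main effect of DSF on the log2 ratio was 0.50 (exact permutation p = 0.045, adjusted p = 0.27 over 6 tests) and that of anti-PD-1 was 0.08 (exact permutation p = 0.71).

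Ccl5 divided by the same sum ranged from 0.583 to 1.503 in control, 0.986 to 1.81 in DSF, 0.786 to 1.05 in anti-PD-1 and 0.831 to 1.17 in the combination, all overlapping. Its log2 ratio differed by 0.25 with DSF (exact permutation p = 0.375) and by -0.31 with anti-PD-1 (exact permutation p = 0.24), with an adjusted p of 0.667 for each.

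**Figure D3:**
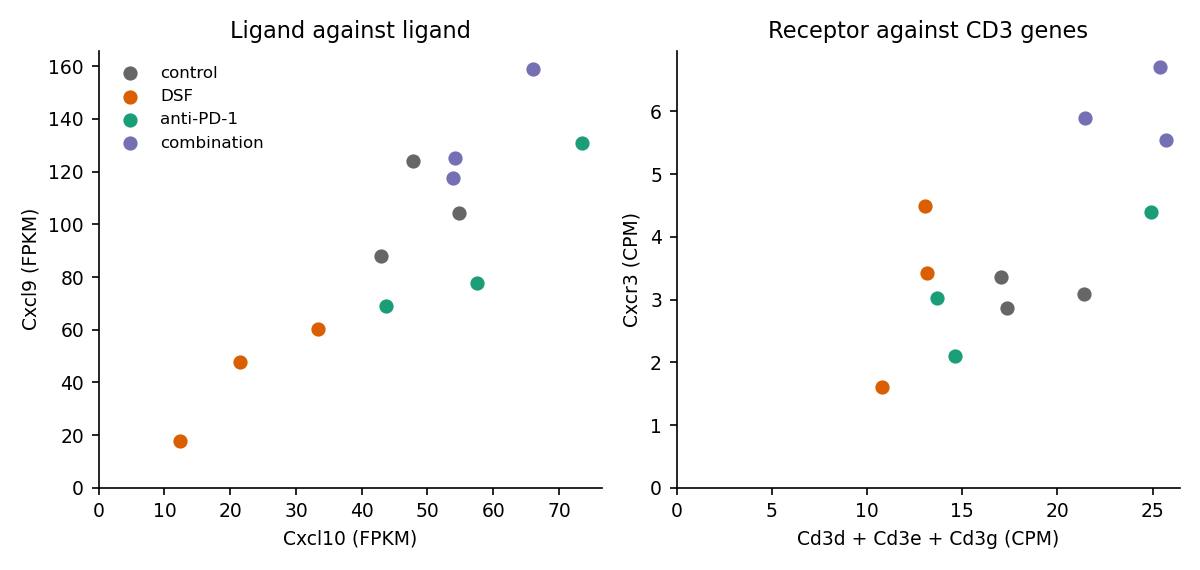
Left, Cxcl9 (y axis, FPKM) against Cxcl10 (x axis, FPKM); right, Cxcr3 (y axis, CPM) against the sum of Cd3d, Cd3e and Cd3g (x axis, CPM), with a point per library coloured by arm. DSF libraries form the low end of the ligand plot with ratios of 1.44 to 2.22, and combination libraries lie at 5.54 to 6.71 CPM of Cxcr3 with CD3 sums of 21.4 to 25.7 CPM.

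Genes that act upstream of the ligands were not uniform. Of 15 genes of interferon and NF-kB input, 14 were tested, and 0 were called in either direction in DSF against control (median log2 fold change 0.02, all genes 0.03) or in the combination against DSF (0.09, all genes -0.02). Jak2, a kinase of the interferon gamma receptor, was at 268 ± 55.7 CPM in control and 318 ± 30.5 in DSF (log2 fold change 0.25 ± 0.15, adjusted p = 0.585).

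The following 3 were chosen after their values were seen. Ifng, the gene of interferon gamma, was at 4.26, 6.07 and 2.18 CPM in control and 1.74, 0.499 and 1.10 CPM in DSF replicates. In the combination it was at 3.33, 4.08 and 5.07 CPM, above all DSF libraries (log2 fold change 1.90 ± 0.53, adjusted p = 0.083). Anti-PD-1 replicates were at 3.97, 1.57 and 2.11 CPM and overlapped with DSF, while both ligands had no overlap between these arms. Irf1, a transcription factor induced by interferon gamma, was at 193 ± 55.2 CPM in DSF, 311 ± 30.7 in control and 291 ± 28.3 in the combination (combination against DSF 0.59 ± 0.19, adjusted p = 0.123). In anti-PD-1 tumours Irf1 was at 323 ± 41.9 CPM, without overlap with DSF. Tnf, which acts with interferon gamma on Cxcl9 and Cxcl10, was at 4.69 ± 1.92 CPM in DSF, 9.95 ± 1.95 in control and 11.5 ± 0.962 in the combination (1.29 ± 0.33, adjusted p = 0.0667). In anti-PD-1 tumours Tnf was at 7.26 ± 2.21 CPM and overlapped with DSF (5.32 to 9.67 against 2.50 to 6.07 CPM).

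All 11 T cell genes had negative log2 fold changes in DSF against control (median -0.61) and positive ones in the combination against DSF (median 1.00) and against control (median 0.42), with 0 called. Of 9 genes of the type 1 lymphocyte programme, which holds factors and cytokine receptors of cells that carry CXCR3, 9 were positive in the combination against DSF (median 0.87) and 1 rose. That gene was Il2rb, a chain of the interleukin 2 and 15 receptors, at 35.1 ± 2.74 against 17.9 ± 3.37 CPM (log2 fold change 0.97 ± 0.21, adjusted p = 0.0434). Among 8 NK and cytotoxic genes, Klrk1 and Klrb1c, both NK receptors, rose by 2.04 ± 0.40 and 2.06 ± 0.40 on the log2 scale (adjusted p = 0.0409 for each). All 3 calls belong to the comparison that had 0 genes called without several single libraries.

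The cells that make or receive these chemokines varied beside them. T cell markers summed to 45.6 to 61.5 CPM in DSF, 71.2 to 91.1 in control, 58.5 to 107.5 in anti-PD-1 and 98.8 to 123 in the combination. DSF and combination libraries were apart from control on either side, and control and anti-PD-1 overlapped. Macrophage markers summed to 1066 to 2657 CPM in DSF and 1923 to 2061 CPM in the combination, and dendritic cell markers to 307 to 485 and 443 to 478 CPM, overlapping for both. These sums weigh strongly on Mrc1 (616 ± 396 CPM in DSF) and Fscn1 (312 ± 88.0). Gene by gene, 8 of 10 macrophage and 7 of 8 dendritic cell genes were positive in the combination against DSF (medians 0.47 and 0.44). Monocyte markers summed to 73.8 to 150 CPM in DSF and 179 to 188 in the combination, without overlap. Of 8 dendritic cell genes 1 rose in the combination against DSF, Siglech of plasmacytoid dendritic cells (2.59 ± 0.56 on the log2 scale, adjusted p = 0.0434). Of 8 neutrophil genes 3 fell: S100a8 (-1.84 ± 0.39, adjusted p = 0.0434), S100a9 (-1.90 ± 0.43, 0.0499) and Retnlg (-3.75 ± 0.64, 0.0409). Over all genes this comparison called 227 higher and 36 lower, and these calls too come from the fit that had 0 genes called without several single libraries. None of these lists had a gene at 0 throughout an arm, and the part of cell makeup in the ligand and receptor differences was not tested.

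**Figure D4:**
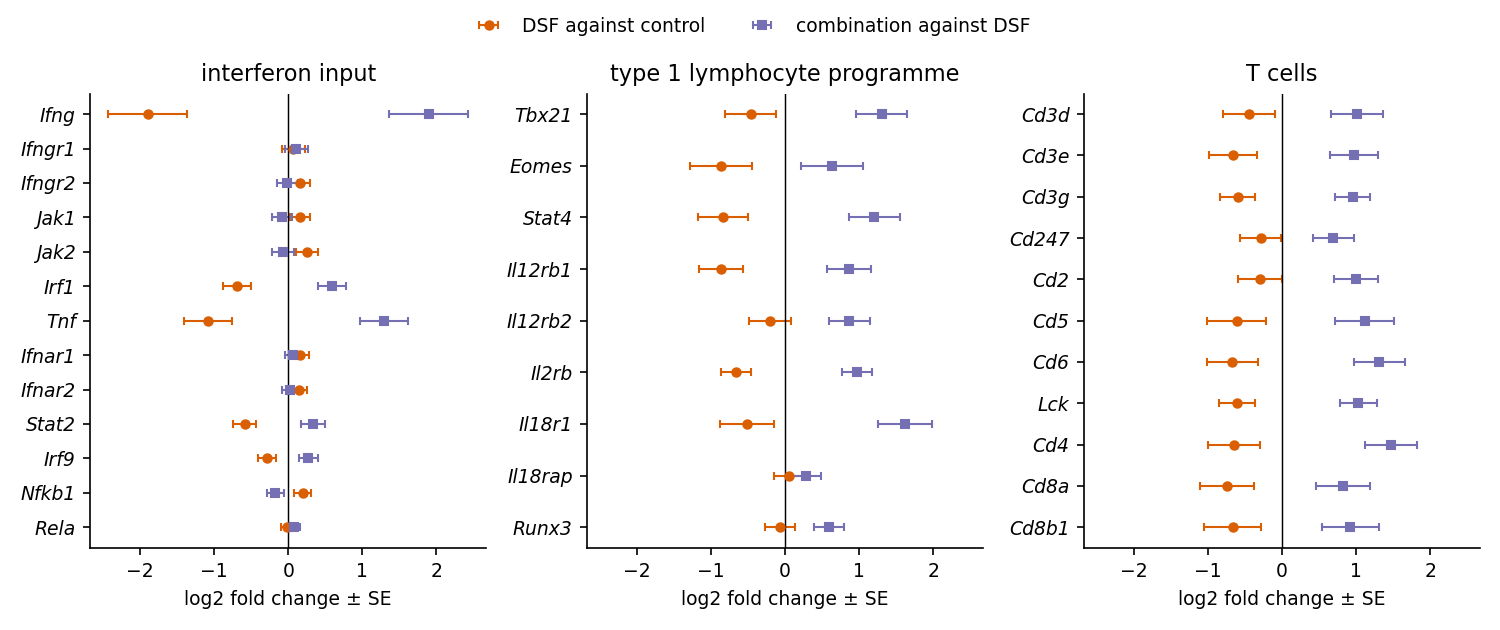
Log2 fold changes with SE (x axis) of tested genes of interferon and NF-kB input, the type 1 lymphocyte programme and T cells (y axes), for DSF against control (circles) and the combination against DSF (squares). Ifng, Irf1 and Tnf and all 11 T cell genes lie below 0 in the first and above 0 in the second comparison, while Jak1 and Jak2 (0.16 and 0.25, then -0.08 and -0.07) stay near 0.

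Genes that clear, trim or receive these chemokines were few and not called. Among 6 genes listed for clearance and trimming, which include the chemokine gene Pf4, the median log2 fold change was 0.51 in DSF against control. It was 0.32 in the combination against DSF, with 0 called in either. Ackr3, an atypical receptor that takes up CXCL11 and CXCL12, was at 56.4 ± 19.9 CPM in DSF, 32.6 ± 8.59 in control and 21.7 ± 5.72 in the combination (combination against DSF -1.38 ± 0.31, adjusted p = 0.0508). Pf4, a platelet and macrophage chemokine also known as CXCL4, was at 109 ± 48.2 CPM in DSF, 50.5 ± 17.5 in control and 54.7 ± 9.73 in the combination (-0.99 ± 0.33, adjusted p = 0.129). Ccr1, a receptor of CCL5, was not called either and was at 87.5 ± 9.81 CPM in control, 88.7 ± 16.7 in DSF, 87.4 ± 18.7 in anti-PD-1 and 99.0 ± 5.24 in the combination.

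Of 16 other lymphocyte chemokines and receptors 15 were tested and 0 were called, with a median log2 fold change of -0.03 in DSF against control and 0.84 in the combination against DSF. Cxcl16, the ligand of CXCR6, was at 117 ± 46.2 CPM in DSF, 166 ± 12.0 in control, 143 ± 25.7 in anti-PD-1 and 167 ± 10.6 in the combination. Cxcl12, the stromal ligand of CXCR4, was at 75.4 ± 108 CPM in DSF and 75.5 ± 49.9 in the combination, with an SD above the mean in DSF.

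Likeness to each member was measured as Pearson's r of log2 CPM over the 12 libraries, as a description, since libraries of 1 arm and 1 tissue composition share much. The genes most like Cxcl9 were Gpr18 (r = 0.97), Tnf (0.97), Iigp1 (0.97), Tap1 (0.96) and Cd40 (0.96), and Cxcl10 held rank 24 of 14143 (0.94). The Spearman correlation, which uses only the order of the libraries, was 0.81 between Cxcl9 and Cxcl10. With arm means removed, Pearson's r between Cxcl9 and Cxcl10 was 0.93. Those most like Cxcl10 were Pdcd1 (0.95), the gene of PD-1, then Tgtp2 (0.95), Cd40 (0.95), Serpina3f (0.95) and Gnl1 (0.95), with Cxcl9 at rank 7. Spearman values with Cxcl10 were 0.80 for Pdcd1, 0.83 for Tgtp2, 0.77 for Cd40, 0.76 for Serpina3f and 0.73 for Gnl1.

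Cxcr3 was most like Chmp1a (r = 0.95), Rab37 (0.95), Cltb (0.92), Rnf208 (0.92) and 2010300C02Rik (0.91). Its r with Cxcl9 was 0.30 and with Cxcl10 0.25 (Spearman 0.43 and 0.17). With arm means removed, Pearson's r was -0.23 with Cxcl9 and -0.14 with Cxcl10. Ccl5 was most like Atg5 (0.85), Crmp1 (0.84), Dgkz (0.83), Crlf2 (0.80) and Gata1 (0.80), lower values than those reached by the other members. Its r was 0.56 with Cxcr3, 0.45 with Cxcl9 and 0.29 with Cxcl10. Spearman values in the same order were 0.51, 0.30 and -0.14, so the sign with Cxcl10 depended on the measure.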

How the data were processed

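Tumour RNA of 12 libraries was read on a BGISEQ-500 instrument, per the labels' protocols. Tools named, without roles, in the submitters' processing notes are RSEM 1.2.12, DESeq2 1.4.5, HISAT2 2.0.4 and Bowtie2 2.2.5, and the genome build is not given in the sources used here. The authors deposited expected counts (estimated reads per gene or transcript, 9.02% of gene values not whole) and FPKM, per the file headers. Columns named p were read as anti-PD-1 from the deposited group plan, a control column ending in 11 as control 1, and column numbers as those of the titles.

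Expected counts were rounded, filtered with filterByExpr (14144 of 18433 genes kept), scaled by TMM and fitted with edgeR 4.0.16 (quasi-likelihood, R 4.3.3) with 1 mean per arm over 12 libraries. Tests were two-sided, with Benjamini-Hochberg adjustment over all genes tested and a threshold of 0.05. SEs were derived from the quasi-likelihood statistic, and log2 CPM used a prior count of 2. Alternatives were DESeq2 1.42.0, limma 3.58.1 on log2(FPKM + 1) or log2(FPKM + 0.1), RLE factors, no filter, the replicate number as a block, marker-score covariates, fits of 2 arms, and leaving out each library. Ratios were tested by exact permutation within strata. The fit was tested on simulated data with seed 11.

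Members, lists and tests were chosen with earlier results of these data known. Named genes are all members, list genes past the threshold or else the 2 of each list with the highest mean CPM, and the 5 genes most like each member, unless said otherwise. Some genes that this rule names are not reported here.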

Additional observations from a re-analysis of the deposited data

How the results depend on the processing

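Among 14144 genes, DESeq2 called 2 members in DSF against control (221 genes in all), 2 in the combination against DSF (1170) and 2 for any difference (870). It called 1 each for DSF against anti-PD-1 (146), the interaction (235) and the main effect of anti-PD-1 (321). In these comparisons edgeR called 0 members. Both limma settings called 2 in the combination against DSF, among 431 and 469 genes. Leaving out 1 library gave 0 to 2 members called in the combination against DSF (0 to 601 genes). It gave 0 to 1 in DSF against anti-PD-1 (0 to 27 genes) and 0 members in the other comparisons. RLE factors, no filter, both groups alone and covariates gave 0 members everywhere, with up to 261 genes called by RLE factors. The cause of these differences was not tested.

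Values whose sign turned with the replicate block were Cxcr3 in DSF against control (-0.0539), in anti-PD-1 against control (-0.0299) and in DSF against anti-PD-1 (-0.0240), and Cxcl10 in the combination against anti-PD-1 (0.0110). With limma on log2(FPKM + 1) the same 4 were at -0.055, -0.0136, -0.0414 and 0.0197, and on log2(FPKM + 0.1) at -0.111, -0.0338, -0.0772 and 0.0204. With skin and adipocyte covariates they were Ccl5 in DSF against control (0.0787), the combination against DSF (-0.29), the combination against control (-0.21) and the main effect of anti-PD-1 (-0.33), Cxcr3 in anti-PD-1 against control (-0.0563), and Cxcl9 (-0.13) and Cxcl10 (-0.20) in the combination against control.

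Without single libraries, ranges that cross 0 were -0.28 to 0.38 (DSF against control), -0.27 to 0.26 (antibody against control) and -0.32 to 0.33 (DSF against antibody) for Cxcr3. For Ccl5 they were -0.57 to 0.0035 (DSF against control), -0.10 to 0.43 (combination against control), -0.24 to 0.38 (DSF against antibody), -0.0160 to 0.29 (main effect of DSF) and -0.10 to 0.22 (of anti-PD-1), and for Cxcl10 -0.20 to 0.17 (combination against anti-PD-1). The main effect of anti-PD-1 ran from -0.13 to 0.0217 for the ratio of Cxcl9 to Cxcl10 and from -0.0848 to 0.22 for that of Cxcr3 to T cell genes.

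Same-numbered libraries of different arms had deviations correlated at -0.365 to 0.462 (10 of 18 pairs over 0.1). Their median r was 0.129, against -0.043 for different numbers, and 7 of 12 libraries correlated best with their own number. The main fit did not take numbers as pairs, and whether same-numbered libraries share an effect was not tested. The replicate block called 0 members in any comparison, as without it, and 7 genes in place of 263 in the combination against DSF. DESeq2 called 1170 genes there, and edgeR on both groups alone called 0. Cxcr3, with 22 to 101 counts, had the fewest counts of the members. Its SE in the combination against DSF was 0.37, beside 0.38 for Cxcl9, 0.30 for Cxcl10 and 0.35 for Ccl5, and the part of depth was not tested.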

Other observations

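Xcl1 and Xcr1, chosen after their values were seen, had, like Cxcr3, their highest means in the combination. The trait is not particular to them. Of the 15 tested lymphocyte chemokines and receptors in their list, 11 were higher in the combination than in control. The number was also 11 against DSF and 11 against anti-PD-1. Xcl1, a lymphocyte chemokine, was at 2.31 ± 0.55 CPM in the combination against 0.523 ± 0.132 in control, 0.522 ± 0.253 in DSF and 1.03 ± 0.696 in anti-PD-1 (SD, n = 3 each; combination against DSF 2.14 ± 0.53 SE on the log2 scale, edgeR adjusted p = 0.062). Xcr1, its receptor on cross-presenting dendritic cells, was at 6.37 ± 0.935 CPM in the combination against 3.11 ± 0.468, 1.91 ± 0.806 and 3.55 ± 1.88 CPM in the same order (1.73 ± 0.41, adjusted p = 0.0558). Neither passed the threshold.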
